A study of Homo sapiens with 4 samples.

Results

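The genes described here encode the HSP70 and HSP110 chaperones, and they were followed in human multiple myeloma cells exposed to OSSL_325096, a compound known only by this code. The 10 genes are HSPA1A, HSPA1B, HSPA6, HSPA8, HSPA2, HSPH1, HSPA4, HSPA4L, HSPA14 and HSPA13. They were found by symbol, and all 10 were among the 57773 genes of the authors' deposited table. The family was chosen by its measured fold changes, the stated reason being that it leads the response. Those fold changes are therefore given as a description and support nothing further. The lines KMS12PE and KMS11, established from multiple myeloma, a malignancy of antibody-secreting plasma cells, were treated with 1 µM OSSL_325096 or with the solvent DMSO. Each of the 4 combinations of line and treatment had 1 library, so each treatment had 2 libraries and no line had a replicate. The labels give neither the length of the treatment nor the number of cultures. How the p-values were computed is not stated, so the spread that they measure is not known. They can draw only on these 4 libraries.

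HSP70 proteins bind exposed hydrophobic stretches of unfolded proteins and let them go in a cycle driven by ATP. HSP40 (J-domain) proteins deliver clients and speed up hydrolysis, while exchange factors, among them the HSP110 proteins and several BAG proteins, release ADP so that the client can leave. The inducible members are classical targets of the heat shock factor HSF1, which binds repeats of a short inverted unit called the heat shock element. Plasma cells and myeloma cells make large amounts of antibody protein and carry a heavy folding load.

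The data were 1 comparison over both lines. Each row of the authors' deposited table holds 1 fold change on the log2 scale, its p-value and an RPKM level, the read count scaled by transcript length and library size, averaged over whichever treatment was higher. Values of single libraries and library depths were not analysed here, so no spread per line can be shown. An implied standard error (SE) was computed from each fold change and its p-value, on the log2 scale. Positive fold changes mean higher with OSSL_325096, as in the table's title, where the compound comes first. Of the 10 genes, 7 had a group mean of at least 1 RPKM, as did 11324 genes in all. The other 3 (HSPA6, HSPA2 and HSPA4L) were under that level. All 8 plasma cell markers examined were above 1 RPKM, from 6.26 RPKM for SLAMF7 to 180 RPKM for XBP1 in the authors' deposited table. Markers of B cells, T cells, myeloid cells and stroma were all under 1 RPKM there, and MS4A1, CD3D and DCN were listed at 0.

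The upstream sequences of the inducible pair are shown first, because HSPA1A and HSPA1B are near copies and the heat shock factor's unit lies at the same place in both. Each is 220 bases long and covers bases 250 to 31 before the RefSeq transcription start on GRCh38.p14, plus strand (chr6:31815293-31815512 for HSPA1A and chr6:31827488-31827707 for HSPA1B). Capitals mark 2 exactly matched units of the heat shock element, head to head. Single units and units with other letters are not marked.
HSPA1A: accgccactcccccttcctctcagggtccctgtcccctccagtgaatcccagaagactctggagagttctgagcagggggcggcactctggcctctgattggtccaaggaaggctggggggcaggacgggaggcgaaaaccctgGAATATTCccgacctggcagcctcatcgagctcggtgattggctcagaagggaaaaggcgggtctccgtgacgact
HSPA1B: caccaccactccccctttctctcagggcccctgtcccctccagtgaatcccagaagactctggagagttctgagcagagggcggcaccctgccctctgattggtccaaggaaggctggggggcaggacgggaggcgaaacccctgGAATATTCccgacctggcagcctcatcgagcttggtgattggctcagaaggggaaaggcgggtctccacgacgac

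An exact match to the full 3-unit element was found in 2 members, HSPA8 and HSPA6, and its sites are shown for comparison with the pair above. Each site is 30 bases long on GRCh38.p14, read along the gene, with the 3 units and the bases between them in capitals. The HSPA8 sites lie on the minus strand (chr11:123062345-123062374 and chr11:123062170-123062199) and the HSPA6 site on the plus strand (chr1:161524458-161524487).
HSPA8 distal: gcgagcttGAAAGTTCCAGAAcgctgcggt
HSPA8 proximal: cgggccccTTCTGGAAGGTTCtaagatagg
HSPA6: cggaaaggTTCGCGAAAGTTCgcggcggcg

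Among the 7 genes of at least 1 RPKM, 4 were at least 2-fold higher with OSSL_325096: HSPA1B, HSPA8, HSPH1 and HSPA1A. In this order they ranked 9, 11, 24 and 25 by fold change among the 11324 genes of at least 1 RPKM. Over all 11324 genes of that level 0.989% were at least 2-fold higher, and nothing is read from the contrast between these shares, since the fold changes chose the family. The same 4 members were at least 1.5-fold higher, against 4.95% of all genes, and 0 members were at least 1.5-fold lower, against 4.95% of all genes. HSPA4, HSPA14 and HSPA13, all between 13.1 and 31.8 RPKM in the authors' deposited table, lay within 1.5-fold. The highest of these stood at 0.24 (HSPA4) and the lowest of the 4 at 1.60 (HSPA1A) on the log2 scale, and their intervals of 1 implied SE overlapped, that of HSPA4 ending at 1.15 and that of HSPA1A beginning at 0.20. No member passed a correction for multiple tests. The deposited false discovery rate was 0.999995 for every gene with a fold change in the authors' deposited table. After Benjamini-Hochberg adjustment over the 11324 genes, 0% of genes had an adjusted p under 0.05, and 5 genes had an unadjusted p under that value. Well-scaled p-values fall under 0.05 in about that share of genes even without any difference. Far fewer genes did so here, so the deposited p-values appear too large and the implied SEs computed from them too wide. Overlapping intervals, or a fold change smaller than its implied SE, therefore do not show that a difference is absent.

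**Figure D1:**
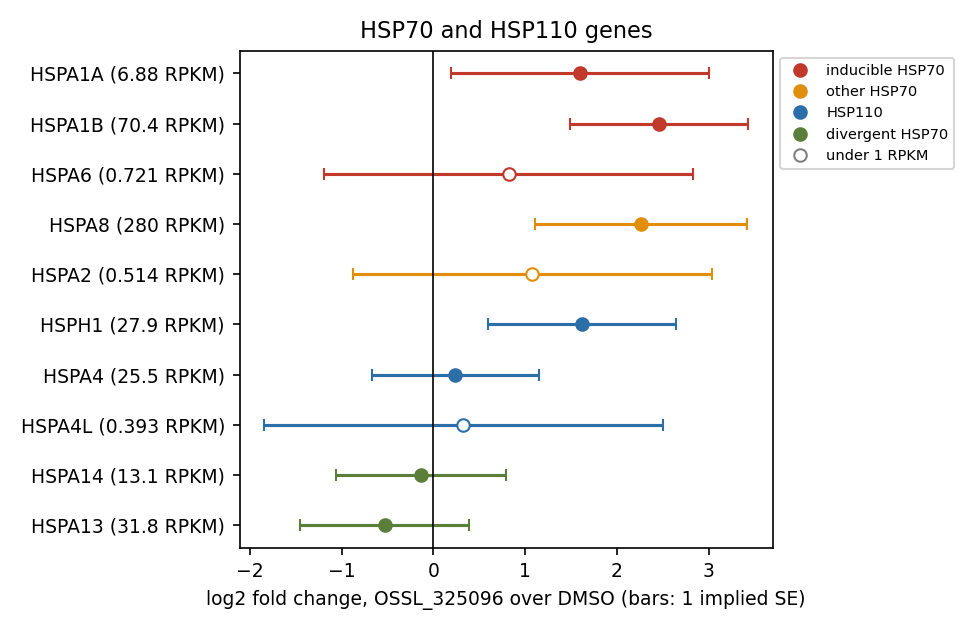
Difference between OSSL_325096 and DMSO as a log2 fold change (horizontal axis) for each of the 10 genes, with its group mean in RPKM beside the symbol. Bars are 1 implied SE, colours give the role and open circles mark the 3 genes under 1 RPKM. HSPA1B, HSPA8, HSPH1 and HSPA1A stand to the right of 1 with bars that do not reach 0, while the bars of the other 6 genes cross it.

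The inducible HSP70 genes HSPA1A and HSPA1B encode the same protein, the main HSP70 that cells make after heat or proteotoxic stress. HSPA1B (chromosome 6, 31795512 to 31798031, hg19, plus strand) had a group mean of 70.4 RPKM in the authors' deposited table and was 5.50-fold higher (log2 2.46, implied SE 0.97). HSPA1A (chromosome 6, 31783291 to 31785723, plus strand) had 6.88 RPKM in the authors' deposited table and was 3.03-fold higher (log2 1.60, implied SE 1.40). Their values cannot be fully held apart. Each is a single exon in GENCODE 44, their proteins are identical over 641 residues, and 72.4% of the 100-base windows of the HSPA1A transcript occur without a mismatch in an HSPA1B transcript. How reads that fit both copies were counted is not stated in any source used here.

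Group levels in both treatments were computed from the deposited mean and fold, which holds only if that fold is the ratio of the 2 group means. On this reckoning HSPA1B had 12.8 RPKM with DMSO and 70.4 RPKM with OSSL_325096, and HSPA1A 2.27 and 6.88 RPKM. HSPA1B was thus listed at 5.63 times the level of HSPA1A with DMSO and at 10.2 times with the compound. Summed, they had 15.1 RPKM and 77.3 RPKM, a 5.13-fold difference (log2 2.36). The sum removes the split of reads between the pair only if shared reads were kept and each counted once. The summed fold lies nearer to that of HSPA1B, which held most of the signal.

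HSPA6, which encodes HSP70B′, a strictly stress-inducible HSP70, was barely detected. The authors' deposited table lists it at 0.721 RPKM (chromosome 1, 161494036 to 161496681, plus strand), with a fold change of 0.82 on the log2 scale (implied SE 2.01). The SE was larger than the fold change, and with a pseudocount of 1 RPKM the value was 0.29. Of its transcript's 100-base windows, 27.8% are shared with HSPA7, its neighbouring pseudogene, which was listed at 0 RPKM in the authors' deposited table.

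HSPA8 encodes HSC70, the HSP70 that cells make without stress and the carrier of clathrin uncoating and of chaperone-mediated autophagy. It had the highest level of the family (chromosome 11, 122928197 to 122933938, minus strand). Its group mean in the authors' deposited table was 280 RPKM, and it was 4.79-fold higher (log2 2.26, implied SE 1.15). The implied levels were 58.4 RPKM with DMSO and 280 RPKM with OSSL_325096. Summed over the 10 genes, the implied level was 150 RPKM with DMSO and 446 RPKM with the compound, a 2.97-fold difference. HSPA8 made up 38.9% of that sum with DMSO and 62.7% with the compound. Without HSPA8 the sums were 91.6 and 166 RPKM, a 1.81-fold difference, so that a single gene carried most of the added signal. RPKM is scaled per length, so these levels may be set side by side between genes.

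The reads of HSPA8 were not visibly spread over its pseudogenes. The authors' deposited table holds 17 of its pseudogenes, and 13 of them are at 0 RPKM. The other 4 together had 0.246 RPKM, 0.0878% of the HSPA8 level. No 100-base window of the HSPA8 transcript occurs in a transcript of another gene of GENCODE 44. SNORD14C, SNORD14D and SNORD14E, small nucleolar RNA genes inside HSPA8, were listed at 0 RPKM in the authors' deposited table.

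HSPA2, a relative of HSPA8 best known for its role in sperm development, was near the limit of detection. The authors' deposited table lists it at 0.514 RPKM (chromosome 14, 65002623 to 65009955, plus strand), with a fold change of 1.08 on the log2 scale (implied SE 1.95). Its fold change was past 2-fold but smaller than its SE, and it is not among the 7 genes counted above. With a pseudocount of 1 RPKM added to both implied levels, its fold change was 0.28 on the log2 scale, under 1.5-fold.

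**Figure D2:**
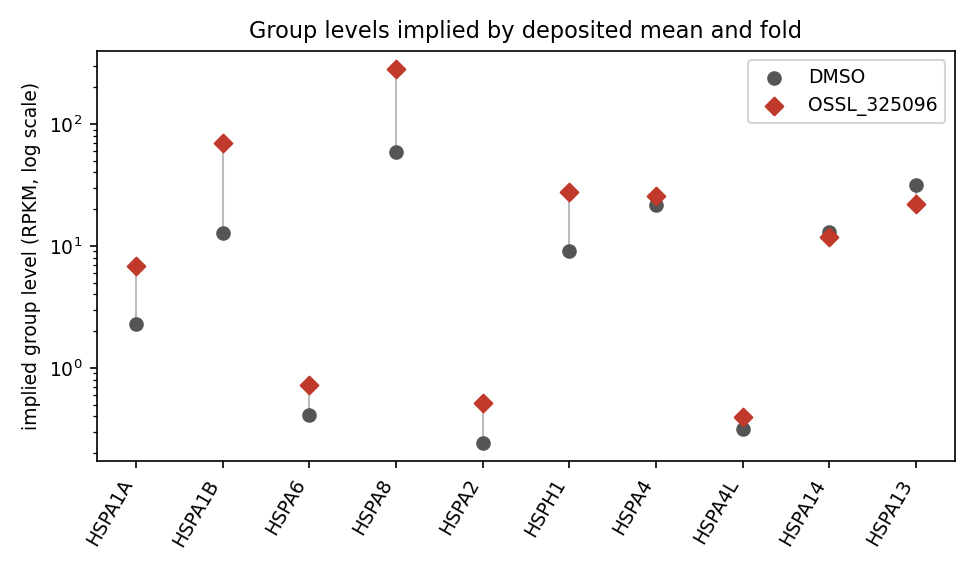
Group level in RPKM (vertical axis, log scale) of each of the 10 genes with DMSO (grey circles) and OSSL_325096 (red diamonds), computed from the deposited group mean and fold. The points are group values without an error; HSPA8 goes from 58.4 to 280 RPKM and HSPA13 from 31.8 to 22.0 RPKM.

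The HSP110 genes encode large HSP70 relatives that act as exchange factors for HSP70 and keep unfolded proteins from aggregating. HSPH1, the heat-inducible HSP105 (chromosome 13, 31710762 to 31736525, minus strand), had 27.9 RPKM in the authors' deposited table and was 3.07-fold higher (log2 1.62, implied SE 1.03). HSPA4, also called APG-2 and expressed without stress (chromosome 5, 132387654 to 132442141, plus strand), had 25.5 RPKM in the authors' deposited table and stood at 0.24 on the log2 scale (implied SE 0.91). HSPA4L, also called APG-1 (chromosome 4, 128702976 to 128761888, plus strand), had 0.393 RPKM in the authors' deposited table and stood at 0.32 (implied SE 2.17). The implied levels put HSPA4 at 2.39 times HSPH1 with DMSO (21.6 against 9.07 RPKM) and HSPH1 at 1.09 times HSPA4 with the compound (27.9 against 25.5 RPKM). The main HSP110 transcripts were thus at close levels with the compound. Whether the fold changes of HSPH1 and HSPA4 differ could not be tested without single libraries. The intervals of 1 SE, from 0.59 to 2.65 for HSPH1 and from -0.67 to 1.15 for HSPA4, overlapped.

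The divergent members had the lowest fold changes. HSPA14 encodes a ribosome-bound HSP70 that works with the J-domain protein DNAJC2 on new polypeptides. It stood at -0.14 with an implied SE of 0.93 and a group mean of 13.1 RPKM in the authors' deposited table (chromosome 10, 14880163 to 14913740, plus strand). Of its transcript's 100-base windows, 13.2% are shared with MSANTD7, so reads of that stretch cannot be placed. DNAJC2, its partner, stood at 0.39 (9.34 RPKM, implied SE 1.00) in the authors' deposited table. HSPA13 is an HSP70 of the microsomal fraction, associated with the endoplasmic reticulum, so the cytosolic label of the family does not hold for it. It stood at -0.53 with an implied SE of 0.92 and 31.8 RPKM in the authors' deposited table (chromosome 21, 15743436 to 15755805, minus strand). Both fold changes were smaller than their SE.

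The 3 members under 1 RPKM had the largest implied SEs of the family, from 1.95 to 2.17, and the others lay between 0.91 and 1.40. At 20 RPKM or more, a level held by 2393 genes, the median implied SE was 0.94, against 1.10 over all 11324 genes.

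**Figure D3:**
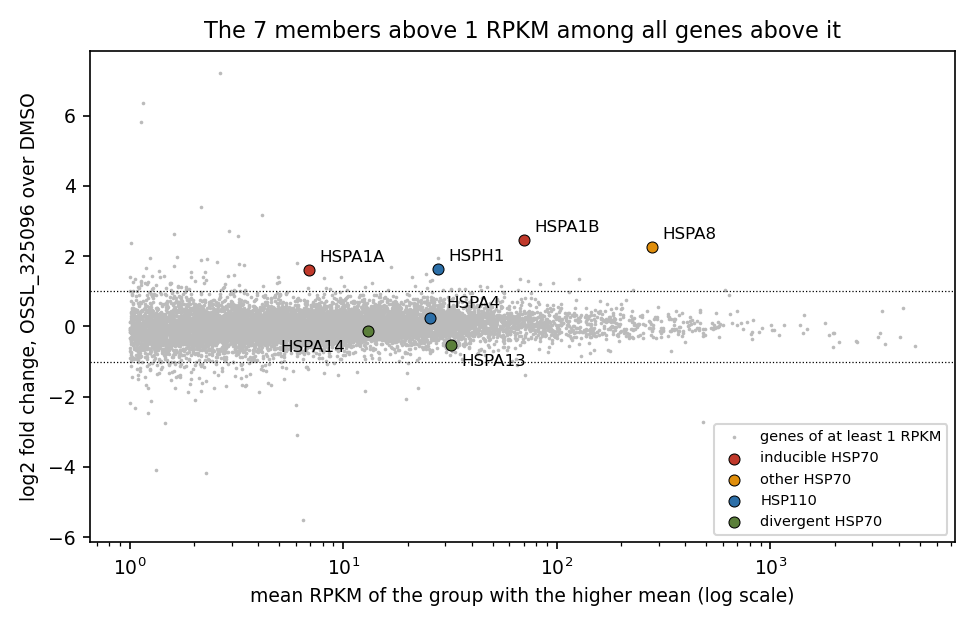
Log2 fold change (vertical axis) against the mean RPKM of the group with the higher mean (horizontal axis, log scale) for the 11324 genes of at least 1 RPKM (grey) and the 7 members among them (coloured by role). Dotted lines mark 2-fold, and HSPA4, HSPA14 and HSPA13 lie between them; for a gene with a positive fold change the horizontal position is its level with OSSL_325096, as for HSPA8 at 280 RPKM.

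Protein identity was computed for each pair of members. HSPA1A, HSPA1B, HSPA8, HSPA2 and HSPA6 shared between 77.5% (HSPA8 and HSPA6) and 100% (HSPA1A and HSPA1B) of residues in global alignments of their longest reading frames. HSPA1A and HSPA8 were 85.6% identical. HSPH1 and HSPA4 were 60.3% identical to each other, while HSPH1 was 25.1% identical to HSPA1A. HSPA14 was 27.8% and HSPA13 25.0% identical to HSPA1A. Gene structure also varied. HSPA1A, HSPA1B, HSPA2 and HSPA6 have 1 exon in the transcript used, with a GC content from 54.9% to 59.8%, whereas HSPA8 has 8 exons and 45.1% and HSPH1 18 exons and 40.7%. HSPA4 resembles HSPH1, with 19 exons and 42.4%.

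The promoters were compared over the window from 250 bases before to 50 bases after the RefSeq start on GRCh38.p14. They were matched by symbol for 9 of the 10 members, not for HSPA14. The 3-unit heat shock element was searched as GAANNTTCNNGAA or TTCNNGAANNTTC on both strands, and the 2-unit form as GAANNTTC or TTCNNGAA, which every 3-unit match also contains. Only exact letters were counted, so an element with an imperfect unit would be missed. The 3-unit form was in 0.490% of the 35116 promoters of the table, in 0.608% of its 27305 gene symbols at any start, and in 2 of the 9 members, HSPA8 and HSPA6. HSPA8 holds it at 2 places, starting 230 and 55 bases before the start, and HSPA6 at 1, 74 bases before the start. The 2-unit form was in 13.5% of all promoters, in 16.2% of gene symbols and in 5 of the 9 members. Besides HSPA8 and HSPA6, these were HSPA1A (106 bases before the start), HSPA1B (105 bases before it) and HSPA4L, at 1 of its 3 starts. No such letters were found in the windows of HSPH1, HSPA4, HSPA13 and HSPA2.

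The HSPA1A and HSPA1B windows were identical at 277 of 301 aligned positions (92.0%). Both hold the CCAAT box (CCAAT or ATTGG, in 34.6% of all promoters) on each side of the 2-unit element, as the printed sequences show. Counted by gene symbol, CCAAT boxes were found in 5 of the 9 members and 39.7% of all symbols. The GC box (GGGCGG or CCGCCC, 45.0% of all promoters) was in 8 of 9 members, all but HSPH1, and in 48.3% of symbols. The members with an element were not all highly expressed, since HSPA6 and HSPA4L were under 1 RPKM. Nor did every member past 2-fold hold an exact match, since HSPH1 had none in this window.

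**Figure D4:**
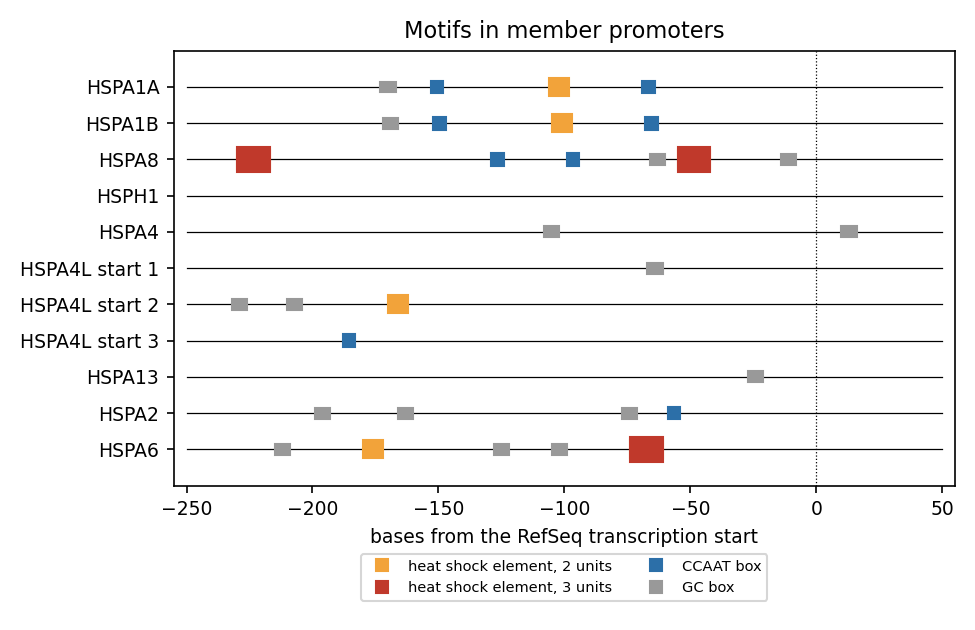
Positions of motif matches in the promoter windows of 9 members, in bases from the RefSeq transcription start (horizontal axis), with 1 line for each start. Red boxes are 3-unit and orange boxes 2-unit heat shock elements, blue boxes CCAAT and grey boxes GC boxes; HSPA8 holds the red box at 2 places and the HSPH1 line is empty.

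The 3-unit element was then used to look outside the family. Of the 11324 genes, 8783 had a promoter in the table, and 38 of those that are not members held the element. Their median log2 fold change was 0.088, and 25 of 38 were above 0, against a median of 0.0093 and 51.1% above 0 for the 8739 genes without it. At least 1.5-fold higher were 3 of the 38 (7.89%) and 4.44% of the others. At least 1.5-fold lower were 2 of the 38 and 369 of the 8739. Of the higher genes with the element, DNAJA1 and CHORDC1 also belong to the chaperone lists described below. Among the others with it, so do HSP90AA1 (0.53), HSP90AB1 (0.43), DNAJB6 (0.22) and HSPD1 (-0.061). Those lists were chosen with earlier results of these data known, so the 38 genes are not independent of them. Over 1173 genes with the 2-unit element the median was -0.015 and 47.9% were above 0. Over 7604 genes without it these were 0.015 and 51.7%, so the difference lay the other way. At 5 RPKM or more the medians were both above 0, at 0.035 with the 2-unit element and 0.064 without it. These differences were not tested. Among the genes with the 3-unit element, those of at least 5 RPKM with the largest fold changes were DNAJA1 (HSP40) at 1.11, PGAM5, a mitochondrial phosphatase, at 0.68, HSP90AA1 at 0.53, HSP90AB1 at 0.43 and ATP2C1, a calcium pump of the Golgi, at -0.38 in the authors' deposited table.

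Genes beside the members were also examined, since position was not used to choose them. Within 100 kb of the members, 6 other genes of at least 1 RPKM were the nearest on one side, genes overlapping a member not counted. Of these, 0 were 1.5-fold from 1 in either direction, against 4.95% of all genes higher and 4.95% lower. At any distance there were 18 such nearest genes, 0 of them 1.5-fold higher and 1 lower. With so few genes, nothing is read from these counts. LSM2, upstream of HSPA1A, stood at 0.30 and C6orf48, which starts 4354 bases downstream of HSPA1B, at -0.42 in the authors' deposited table. The implied SEs were 1.08 and 0.93. HSPA1L, the third HSP70 gene of this cluster, is transcribed from the opposite strand and overlaps the start of HSPA1A in the authors' deposited table, where it stood at -0.33 with 0.537 RPKM (implied SE 1.79). The other nearest genes were SUV39H2 beside HSPA14 at 0.076, ZBTB1 beside HSPA2 at -0.075, PLK4 beside HSPA4L at -0.13 and ZCCHC10 beside HSPA4 at -0.25 in the authors' deposited table. CDNF, which overlaps the start of HSPA14 on the opposite strand, stood at -0.92 with 1.05 RPKM (implied SE 1.85) in the authors' deposited table. No source used here states whether the counting used strand, so reads from such overlaps cannot be told apart.

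The other HSP70 and HSP110 genes examined were HSPA5, HSPA9, HYOU1, HSPA12A, HSPA12B, HSPA1L and the pseudogene HSPA7. Like the lists that follow, this list was chosen with earlier results of these data known. Nothing is read from the contrast between any of these lists and all genes. Of the 7 genes named here 4 were at or above 1 RPKM, with a median log2 fold change of 0.017, against 0.0087 over all genes. HSPA5 (BiP), the HSP70 of the endoplasmic reticulum, was the only 1 of the 4 past 1.5-fold, at 0.77 in the authors' deposited table (210 RPKM, implied SE 1.01). HYOU1, its HSP110 partner, stood at 0.21 and HSPA9, the mitochondrial HSP70 mortalin, at -0.31 in the authors' deposited table. HSPA12B, a distant HSP70 relative, stood at -0.17 there (2.92 RPKM, implied SE 1.71). All 4 fold changes were smaller than their implied SE.

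Regulators and adaptors of the HSP70 cycle came next. Of 18 such genes, all at 1 RPKM or more, 4 were at least 1.5-fold higher and 1 lower, against 4.95% of all genes in each direction, and their median was 0.14. BAG3, an exchange factor that links HSP70 to autophagy, and STIP1 (HOP), the adaptor between HSP70 and HSP90, stood at 0.97 and 0.96 in the authors' deposited table (implied SEs 1.04 and 0.99), each within 1 implied SE of 0. STUB1 (CHIP), the ubiquitin ligase that acts on HSP70 clients, stood at 0.22 there, with an implied SE of 0.91. Of 13 measured cytosolic HSP40 genes, 2 were at least 2-fold higher, against 0.989% of all genes, and 0 were 1.5-fold lower, against 4.95%, with a median of 0.16. The 2 were DNAJB1, the main stress-inducible partner of HSP70, at 1.32 and DNAJA1 at 1.11 in the authors' deposited table (implied SE 0.92 for each).

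HSP90 and its partners had a median of 0.21 over 11 genes, 2 of them at least 2-fold higher, against 0.989% of all genes. These were the co-chaperone genes FKBP4 at 1.28 and AHSA1, which stimulates the HSP90 ATPase, at 1.14 in the authors' deposited table, with implied SEs of 0.99 and 0.98. Of 12 measured small heat shock and chaperonin genes, 2 were at least 1.5-fold higher, against 4.95% of all genes: HSPB1 at 0.88 and HSPE1, the mitochondrial co-chaperonin, at 0.74 in the authors' deposited table, and the median was 0.20. The heat shock factor genes themselves had no shared direction. HSF1 stood at 0.29 (49.5 RPKM, implied SE 0.98), HSF4 at 0.70 (3.53 RPKM, implied SE 1.33) and HSF2 at -0.42 (3.68 RPKM, implied SE 1.49) in the authors' deposited table. By Benjamini-Hochberg adjustment over all 11324 genes, 0 genes of these lists had an adjusted p under 0.05.

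**Figure D5:**
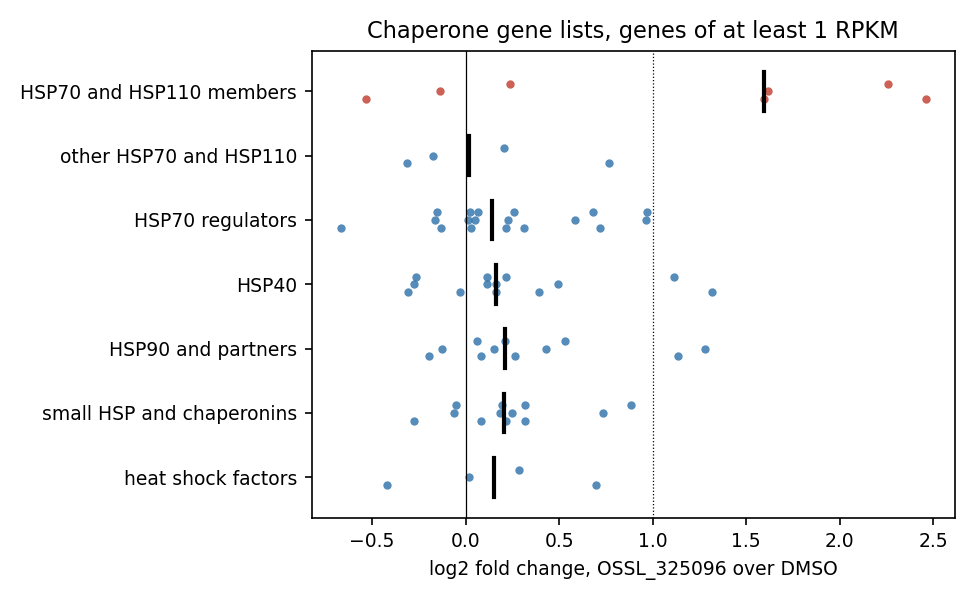
Log2 fold change of each gene of at least 1 RPKM (points) in the family (red) and in 6 other chaperone lists (blue), with black bars at the medians and a dotted line at 2-fold. Of the members 4 lie at 1.60 or above and 3 at 0.24 or below, and the medians of the other lists lie between 0.017 and 0.21.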

How the data were processed

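RNA was sequenced from 4 libraries, 2 with OSSL_325096 and 2 with DMSO, 1 of each line in each group. Per the series' design text, reads were mapped to hg19 and expression and the comparison were obtained with Biomedical Genomics Workbench 5. No source used here states the counting rule, annotation, scaling or model. The authors deposited a single table with 6 value columns and 0 columns of single libraries. Its RPKM column is the higher group mean per the file headers. The authors also deposited the log2 fold change, and the same quantity as a signed fold score. Deposited p-value columns hold unadjusted, false discovery rate and Bonferroni values. The planned limma fit, line block and replicate omission need single libraries and were not run.

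Computed here were an implied SE, implied group levels, and Benjamini-Hochberg adjustment over genes of at least 1 RPKM. The implied SE is the absolute log2 fold change over the normal quantile of the two-sided p-value, exact only for a normal test. The SE and the adjustment were tested only on simulated data with well-scaled p-values, which says nothing about the deposited p-values. The members and 6 lists (74 symbols, all in the table) were chosen with earlier results of these data known. All members were named, with 10 fixed pathway genes, the 2 largest fold changes of each list, the nearest or overlapping neighbours within 100 kb, and the 5 largest fold changes at 5 RPKM or more among other genes with the 3-unit element. DNAJC2, DNAJB6, HSPD1, CHORDC1, HSPA7, HSPA12A, HSPA12B, MSANTD7 and the markers SLAMF7, XBP1, MS4A1, CD3D and DCN were named outside that rule. Sequences are from RefSeq (GRCh38.p14); transcripts are from GENCODE 44 on GRCh37, and proteins were translated from them and aligned with BLOSUM62 (gap opening 11, extension 1). Tools were Python 3.11.15, pandas 2.3.3, numpy 2.4.6, scipy 1.17.1, Biopython 1.88 and matplotlib 3.10.9.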

Additional observations from a re-analysis of the deposited data

How the results depend on the processing

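No paired analysis was possible because the table holds no values of single libraries, and leaving out each library could not be run for the same reason. Of 29 alternative values of the 10 members (centring on the median of all genes, removal of a trend with GC content, length and expression, a pseudocount of 1 RPKM, and HSPA1A and HSPA1B summed), 28 kept their sign and moved by less than 1 implied SE. The exception was HSPA14, at 0.019 with the trend removed. The limit of 1 implied SE is wide, from 0.91 to 2.17, and centring shifted each value by only 0.0087. The count therefore says little about how stable the values are. With no minimum on RPKM, 5 members were past 2-fold and 6 past 1.5-fold. The share of all genes was not computed at that setting, so nothing is read from these counts. Of the 23130 genes with a fold change, 1658 stood at 2.33 on the log2 scale when rounded. With the copies counted as 1 gene, chosen after seeing the data, 3 were past each, against 0.989% and 4.95% of all genes of at least 1 RPKM. The median of the other HSP70 and HSP110 genes was -0.011 with no minimum and -0.098 with the trend removed. The median of other genes with a heat shock element was -0.015 with the 2-unit form. No gene had an adjusted p under 0.05 by Benjamini-Hochberg adjustment with no minimum or at 5 RPKM, where 0 genes passed. Without a minimum, 9 genes had an unadjusted p under 0.05. The pseudocount of 1 RPKM took HSPA2 from 1.08 to 0.28 and HSPA6 from 0.82 to 0.29, so HSPA2 was no longer past 2-fold and HSPA6 no longer past 1.5-fold. Depth per library is not given.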

Other observations

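Some rows tied to the family carry fold changes that recur across the table at very low levels. Both rows below were picked with their values in view and carry no test. HSPA8P11, an HSPA8 pseudogene at 0.0197 RPKM, stood at 2.33 on the log2 scale in the authors' deposited table, a value that 1658 genes share when rounded to 2 decimals, with a median level of 0.0247 RPKM. RP11-973N13.4, which overlaps HSPA2 on the opposite strand at 0.0814 RPKM, stood at -2.31 in the authors' deposited table, a value shared by 1244 genes with a median of 0.0332 RPKM. None of the 10 members had either value, and their implied SEs of 0.91 to 2.17 were smaller than the 3.17 of HSPA8P11 and the 3.15 of RP11-973N13.4.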
